A study of Mus musculus with 4 samples.

Results

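The genes of the transforming growth factor beta (TGF-beta) axis were examined in CD31+CD45- cerebral cells of mice with a floxed Mgp gene. The members were chosen by their symbols, namely the ligands Tgfb1, Tgfb2 and Tgfb3, the latent TGF-beta binding proteins Ltbp1, Ltbp3 and Ltbp4, the activator Thbs1, and the signal transducers Smad2 and Smad3. All 9 of these genes were among the 24873 genes of the table, and all 9 passed the filter on low values. The mice carried VE-cadherin cre/ERT2, a recombinase activated by tamoxifen, with Mgp fl/fl, and gave 2 RNA-Seq libraries without tamoxifen (control) and 2 after daily tamoxifen (75 mg/kg, 5 days, begun at 10 weeks of age), all from cells collected on day 9. Both groups therefore shared the recombinase and the floxed alleles, and the VE-cadherin promoter that drives the recombinase is active in endothelial cells (ECs). Each library held cells pooled from 3 mice, so the p-values measure the spread between these pools. The sample labels name the cells by a tdTomato reporter, and the design text names them by CD31 and CD45.

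TGF-beta ligands are made as precursors and are secreted in a latent complex, in which the propeptide of the ligand encloses the growth factor. Latent TGF-beta binding proteins attach this complex to the extracellular matrix, and integrins, proteases and thrombospondin-1 release the active ligand. Active ligand binds type II and type I receptors, which phosphorylate Smad2 and Smad3 in most cells, and in ECs also signal through ALK1 (Acvrl1) and endoglin. The axis is known in brain vessels for its part in the contact between ECs and pericytes and in hereditary hemorrhagic telangiectasia, a disease with arteriovenous malformations. The libraries measured RNA only, and neither latent protein, active ligand nor Smad phosphorylation.

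The 100 bases before the outermost annotated start of a gene are shown for the 3 ligands and for Ltbp1 and Ltbp4, since members of the same family moved in opposite directions. They are read from the GRCm39 genome with GENCODE M39 starts and printed 5′ to 3′ on the strand of the gene, with the motifs found in capitals. The windows lie at chr7:25386290-25386389 (plus strand), chr1:186438295-186438394 (minus strand), chr12:86126302-86126401 (minus strand), chr17:75312419-75312518 (plus strand) and chr7:27037118-27037217 (minus strand).
Tgfb1: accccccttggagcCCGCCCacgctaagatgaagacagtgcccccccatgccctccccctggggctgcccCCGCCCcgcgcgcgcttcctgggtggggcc
Tgfb2: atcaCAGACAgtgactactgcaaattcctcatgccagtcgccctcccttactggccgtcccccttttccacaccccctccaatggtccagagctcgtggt
Tgfb3: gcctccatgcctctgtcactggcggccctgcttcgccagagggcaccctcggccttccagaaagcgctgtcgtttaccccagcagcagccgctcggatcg
Ltbp1: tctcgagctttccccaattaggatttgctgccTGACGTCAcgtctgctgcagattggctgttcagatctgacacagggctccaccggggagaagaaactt
Ltbp4: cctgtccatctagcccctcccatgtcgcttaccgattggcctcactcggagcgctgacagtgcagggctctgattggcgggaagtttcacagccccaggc
Searched on both strands were the TATA box (TATAAA), the GC box (GGGCGG), the cAMP response element (TGACGTCA) and the core of the Smad-binding CAGA box (CAGACA), and no matches overlapped each other. The Tgfb1 window held GC boxes at positions -86 and -30, counted back from the start, both on the opposite strand. Of its bases, 76% were G or C, against a median of 55% over the same windows of 21770 protein-coding genes. Among the other windows printed, this share ran from 53% (Ltbp1) to 67% (Tgfb3). The Tgfb2 window held 1 CAGA core at position -96, and the Ltbp1 window held 1 cAMP response element at position -68. No searched motif was found in the windows of Tgfb3 and Ltbp4. The window of Ltbp3, which is not printed and whose gene was called higher like Ltbp1, held none either. Of the same windows of 21770 protein-coding genes, 23.9% held a GC box, 6.09% a CAGA core, 5.84% a TATA box and 1.03% a cAMP response element. A match is a description of these letters and not a site of binding, and RNA levels do not show which start was used.

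The libraries held 35387438 to 49799321 reads on genes. Mgp, the targeted gene, had 1094 and 1352 normalized counts in controls and 945 and 909 after tamoxifen (log2 fold change -0.39, SE 0.18, adjusted p = 0.0986 by limma with Benjamini-Hochberg adjustment), and both tamoxifen values were below the control values. The log2 fold change of Mgp depended on the scaling, with 0.079 for libraries rescaled to the same total (adjusted p = 0.713) and -0.65 under quantile normalization (adjusted p = 0.0128), where it was called lower. The part of Mgp that the deletion removes is not given in the sources used here, so this count of the whole gene is an incomplete check of the deletion. Normalized counts are reads divided by 1 size factor per library, and a gene was called at an adjusted p under 0.05. Of 20485 genes tested, 12071 (58.9%) were called, 6843 higher (33.4%) and 5228 lower (25.5%), so a called gene was the common case in these libraries. The calls were 5514 without tamoxifen library 1 and 4498 without tamoxifen library 2. All 12 endothelial markers were lower, their summed level going from 1235300 and 1161700 to 193764 and 94851 normalized counts, with Flt1 at the highest mean. Of the markers tested in other lists (for most lists with the gene of the highest mean in parentheses), higher were all 10 neutrophil (S100a9), 10 pluripotent cell (Tdgf1), 10 proliferating cell (Mki67), 8 erythroid (Hbb-bs) and 8 astrocyte markers (Slc1a2), with 7 of 7 lymphocyte (Ighm), 9 of 9 platelet and megakaryocyte (Itga2b), 8 of 10 fibroblast, 7 of 9 oligodendrocyte lineage (Cspg4), 6 of 8 neuron (Tubb3), 7 of 10 microglia and macrophage, 5 of 6 choroid plexus and ependyma (Ttr) and 4 of 10 pericyte and smooth muscle markers (Rgs5). Cspg4 (log2 fold change 1.12, adjusted p = 0.0517, limma) and Rgs5 (0.01, adjusted p = 0.985, limma) were themselves not called. Lower were 6 of 7 pituitary markers (Pomc) and 1 fibroblast marker, Lamc3, the one with the highest mean. The remaining pituitary marker tested was called higher. Dpt, a fibroblast gene, and Ly6g, a neutrophil gene, were at 0 in both control libraries. In pooled cells, fewer cells of a type and less RNA per cell cannot be told apart.

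Expression of the TGF-beta axis changed in both directions under tamoxifen. Of the 9 genes, 4 were higher (Tgfb3, Ltbp1, Ltbp3 and Thbs1), 4 were lower (Tgfb1, Tgfb2, Ltbp4 and Smad3) and Smad2 was not called. The 8 called genes stand against the 58.9% of all genes tested, and with an absolute log2 fold change over 1 as well, 7 of the 9 were called against 44.7% of all genes, 4 of them higher (28.6% of all genes) and 3 lower (16%). Their median log2 fold change was -0.07, against 0.05 for all genes tested. Libraries of the groups did not overlap for 8 of the 9 genes, 4 higher and 4 lower, and for 82.3% of all genes tested (43.1% higher and 39.2% lower).

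**Figure D1:**
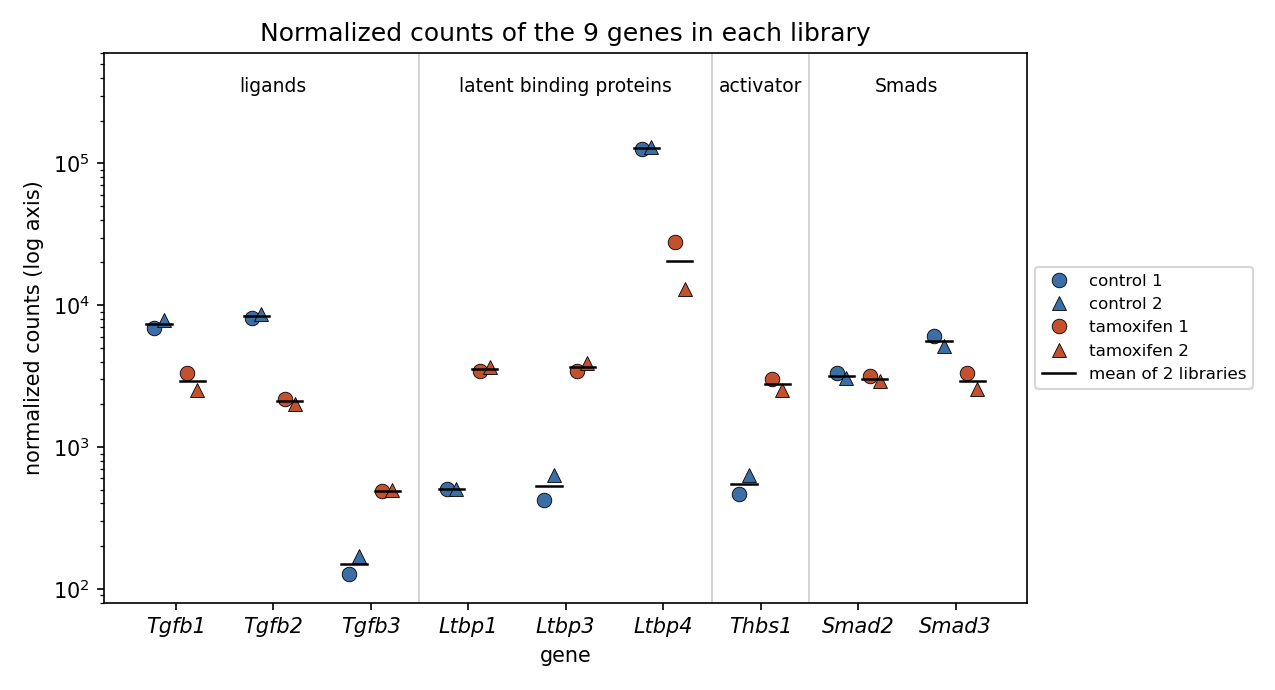
Normalized counts on a log axis for each of the 9 genes in each library (circles, library 1; triangles, library 2; blue, control; red, tamoxifen), with a bar at the mean of the 2 libraries of a group. The groups separate for all genes but Smad2, and the pair of tamoxifen libraries lies furthest apart for Ltbp4, at 28065 and 12975.

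Tgfb1 encodes the ligand that is most widely expressed in endothelium and blood cells, and lies on chromosome 7 from 25386390 to 25404506. It had 6923 and 7815 normalized counts in controls and 3308 and 2536 after tamoxifen. Tamoxifen libraries were below control libraries without overlap, and the mean was 2.52-fold lower (log2 fold change -1.34, SE 0.18, adjusted p = 0.000506, limma). Tgfb2 encodes the ligand that needs the coreceptor betaglycan for strong binding, and lies on chromosome 1 from 186354985 to 186438294. Its normalized counts were 8155 and 8699 in controls and 2198 and 2004 after tamoxifen. The groups were well apart and libraries of the same group close, with a mean 4.01-fold lower (log2 fold change -2.0, SE 0.15, adjusted p = 4.66e-05, limma).

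Tgfb3, the third ligand, is known for its role in palate and lung development and lies on chromosome 12 from 86102756 to 86126301. It was the least abundant member, with 127 and 171 normalized counts in controls and 487 and 499 after tamoxifen, which rest on 93, 137, 449 and 694 reads. The mean was 3.30-fold higher, opposite in direction to the other ligands (log2 fold change 1.73, SE 0.28, adjusted p = 0.00135, limma). The call was lost without tamoxifen library 1 (adjusted p = 0.0764), without tamoxifen library 2 (adjusted p = 0.0818) and under quantile normalization (log2 fold change 0.69, adjusted p = 0.0510), within a range of 2.54e-07 to 0.0818 over 14 alternatives.

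The make-up of the ligand RNA was compared as a share of the summed level per kilobase of exon, which does not depend on how libraries are scaled. Tgfb1 held 50.6% and 51.9% in controls and 59.4% and 54.5% after tamoxifen. Tgfb2 held 48.5% and 47.0% in controls and 32.1% and 35% after tamoxifen. Tgfb3 went from 0.909% and 1.11% to 8.52% and 10.5%. Tgfb1 held the larger share in every library with these lengths, but the sizes of the shares depended on the length used. With the longest transcript as length, the mean shares of Tgfb1 and Tgfb2 were 63.8% and 35.4% in controls and 68.6% and 24.1% after tamoxifen, and with counts not divided by length Tgfb2 was above Tgfb1 in both control libraries. The summed ligand level was 2689.5 and 2960.4 normalized counts per kilobase in controls and 1095 and 915 after tamoxifen. No test was made on shares, since an exact two-sided permutation test of 2 libraries against 2 cannot give a p below 0.333.

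**Figure D2:**
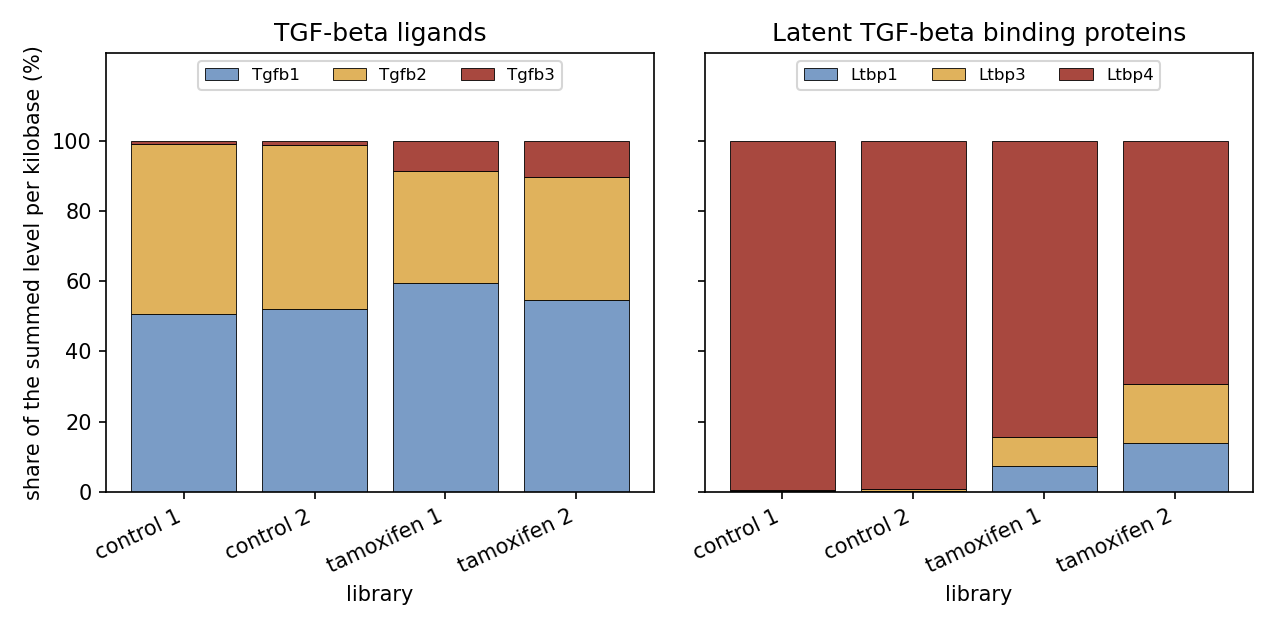
Stacked bars of the share (%) of the summed level per kilobase taken by each ligand (left) and by each latent binding protein (right) in each library. The Tgfb3 segment is at most 1.11% in the control libraries and at least 8.52% in the tamoxifen libraries, and the Ltbp4 segment goes from over 99.3% to 84.4% and 69.3%.

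Ltbp4, a binding protein that carries latent TGF-beta1 and assists elastic fiber assembly, lies on chromosome 7 from 27004086 to 27037117. It was by far the most abundant member, with 125558 and 131262 normalized counts in controls and 28065 and 12975 after tamoxifen. The tamoxifen libraries lay below the control libraries but differed 2.16-fold from each other. The mean was 6.26-fold lower (log2 fold change -2.75, SE 0.38, adjusted p = 0.000598, limma), and the log2 fold change was -1.64 under quantile normalization. Per kilobase, Ltbp4 ranked 47 of 24364 genes in the control group and 293 in the tamoxifen group.

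Ltbp1, which tethers latent TGF-beta to fibrillin and fibronectin fibers, lies on chromosome 17 from 75312519 to 75699507. It had 507 and 506 normalized counts in controls and 3459 and 3683 after tamoxifen. Libraries of the same group were nearly equal, and the mean was 7.05-fold higher (log2 fold change 2.82, SE 0.16, adjusted p = 1.33e-05, limma). Ltbp3, known for its role in bone and tooth growth, lies on chromosome 19 from 5790932 to 5808669. Its normalized counts were 423 and 636 in controls and 3409 and 3928 after tamoxifen. The control libraries differed 1.5-fold, less than the 6.93-fold difference of the means (log2 fold change 2.82, SE 0.22, adjusted p = 5.56e-05, limma).

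Among the 3 latent binding proteins, Ltbp4 held 99.4% and 99.3% of the summed level per kilobase in controls and 84.4% and 69.3% after tamoxifen. Ltbp1 went from 0.282% and 0.269% to 7.31% and 13.8%, and Ltbp3 from 0.269% and 0.387% to 8.24% and 16.9%. Ltbp4 thus stayed the most abundant of the family in every library. The summed level of the family was 16749 and 17528 normalized counts per kilobase in controls and 4409 and 2483 after tamoxifen.

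Thbs1 encodes thrombospondin-1, which binds the latent complex and can release active TGF-beta, is stored in platelets, and lies on chromosome 2 from 117941974 to 117957616. It had 468 and 637 normalized counts in controls and 3032 and 2505 after tamoxifen. Every tamoxifen library was above the control libraries, with a mean 5.01-fold higher (log2 fold change 2.33, SE 0.21, adjusted p = 8.79e-05, limma). Beside it, the summed level of 9 platelet and megakaryocyte markers was 467 and 879.9 normalized counts in controls and 3976 and 3057 after tamoxifen, with all 9 higher and none at 0 in both libraries of a group. The ratio between tamoxifen libraries 1 and 2 was 1.21 for Thbs1 and ranged from 1.22 to 1.49 for these markers. Their part in the result was not tested.

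Smad3, a transducer that binds DNA once receptors have phosphorylated it, lies on chromosome 9 from 63554049 to 63665476. It had 6020.0 and 5170.3 normalized counts in controls and 3304 and 2574 after tamoxifen. The groups did not overlap, and the mean was 1.90-fold lower (log2 fold change -0.94, SE 0.18, adjusted p = 0.00303, limma). Without tamoxifen library 2 the adjusted p was 0.0736, within a range of 9.63e-06 to 0.0736 over 14 alternatives. Smad2, its partner, lies on chromosome 18. It had 3299.7 and 3083 normalized counts in controls and 3147 and 2926 after tamoxifen, so the groups overlapped. The log2 fold change was -0.07 (95% interval -0.42 to 0.27, adjusted p = 0.697, limma), which leaves room for a small change in either direction.

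Levels per kilobase allowed the members to be ordered within a group. In the control group the order was Ltbp4 at 17035 ± 535 normalized counts per kilobase (SD, n = 2), Tgfb1 at 1450 ± 124, Tgfb2 at 1347 ± 61.4, Smad3 at 966 ± 104, Smad2 at 284 ± 13.6, Thbs1 at 85.6 ± 18.5, Ltbp3 at 56.5 ± 16.0, Ltbp1 at 47.2 ± 0.0762 and Tgfb3 at 28.7 ± 5.98. Tgfb1 and Tgfb2 overlapped between libraries, as did Ltbp3 and Ltbp1. In the tamoxifen group Ltbp4, at 2722 ± 1416, remained first and Tgfb3, at 94.5 ± 1.67, last. Between them Tgfb1 (575 ± 107), Smad3 (507 ± 89.2), Thbs1 (429 ± 57.7) and Ltbp3 (391 ± 39.2) each overlapped with the next, as did Tgfb2 (336 ± 21.9) and Ltbp1 (333 ± 14.7), and Smad2 followed at 269.9 ± 13.9. Neighbours in this order depended on the length used, a check that was chosen after seeing the data. With the longest transcript as length, Tgfb1 (2690.5 and 3037 per kilobase) no longer overlapped Tgfb2 (1535 and 1638) in the control group or Smad3 in the tamoxifen group, and Ltbp4 remained first and Tgfb3 last in both groups.

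The direction of the called members did not depend on the scaling of the libraries, but sizes did. After rescaling to equal totals, the median log2 fold change over all genes was 0.47 above that with the deposited size factors, and 76.0% of called genes were higher instead of 56.7%. Under quantile normalization it was 0.28 below (a shift of -0.28), and 43.5% of called genes were higher. Rescaling gave a log2 fold change of -0.87 for Tgfb1, -0.47 for Smad3 and 0.40 for Smad2 (adjusted p = 0.0318, range 0.0318 to 0.950 over 14 alternatives), and quantile normalization gave 0.13 for Smad2, so the sign of Smad2 depended on the scaling. Relative to the median of all genes, Smad2 was at -0.12 with the deposited size factors, at -0.12 after rescaling and at 0.35 after quantile normalization.

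**Figure D3:**
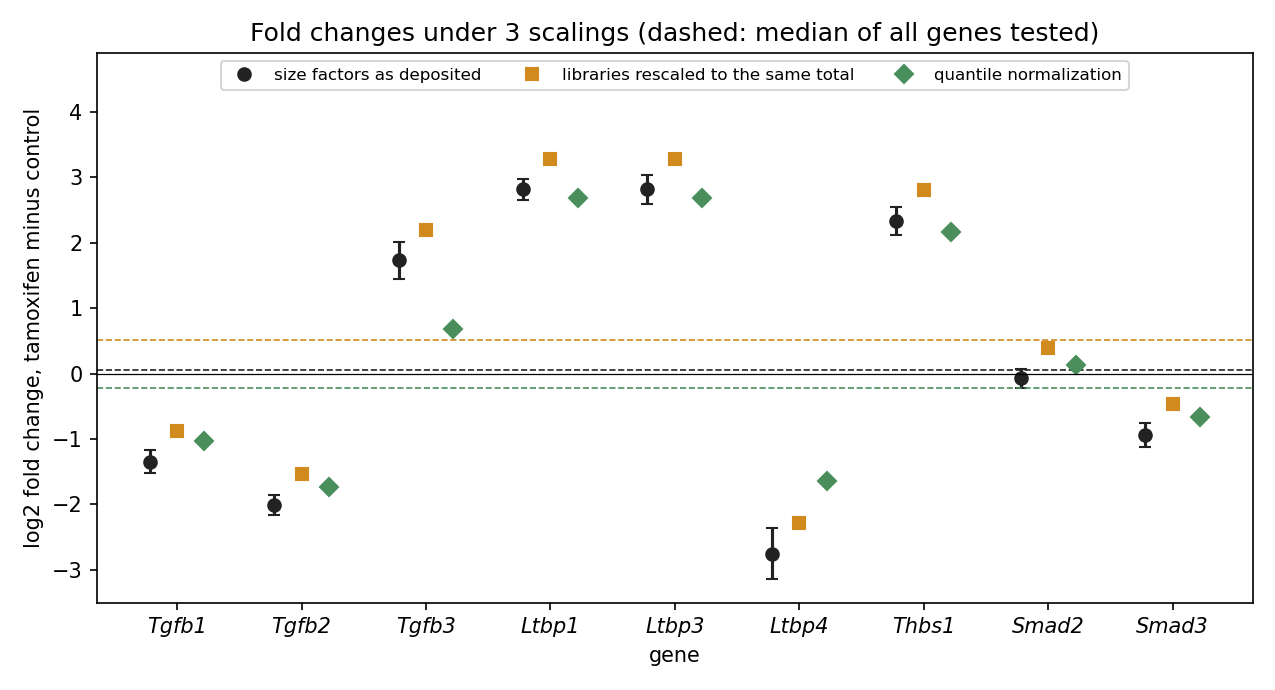
Log2 fold change (tamoxifen minus control) of each gene with the deposited size factors (black, error bars are 1 SE), after rescaling to the same total (orange) and after quantile normalization (green). Dashed lines give the median of all genes under each scaling, at 0.05, 0.52 and -0.23, and 8 genes keep their side of 0 while Smad2 lies at -0.07, 0.40 and 0.13.

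The tamoxifen libraries differed from each other in the level of endothelial markers, and the ratios of the members between these libraries are set beside this. Over all genes tested, the median ratio of tamoxifen library 1 over library 2 was 1.06. The 12 endothelial markers were higher in tamoxifen library 1, by a median of 2.05-fold (range 1.64 to 3.17), while 10 pericyte and smooth muscle markers were at a median ratio of 0.494 (range 0.405 to 0.796). Ltbp4, at a ratio of 2.16, lay within the range of the endothelial markers. Tgfb1 (1.30), Smad3 (1.28), Thbs1 (1.21), Tgfb2 (1.10) and Smad2 (1.08) lay below that range, and Tgfb3 (0.98), Ltbp1 (0.94) and Ltbp3 (0.87) were near 1. The summed level of the pericyte and smooth muscle markers was 34158 and 63083 normalized counts in controls and 46923 and 88954 after tamoxifen, and that of 10 fibroblast markers was 5971 and 6737 in controls and 17859.8 and 16822 after tamoxifen. Lamc3, the fibroblast marker that was lower, made up 4968 and 5427 of the control sums and 1566 and 2294 of the tamoxifen sums. The median log2 fold change of the 10 fibroblast markers was 3.49. The part of these marker lists in the members' differences was not tested.

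**Figure D4:**
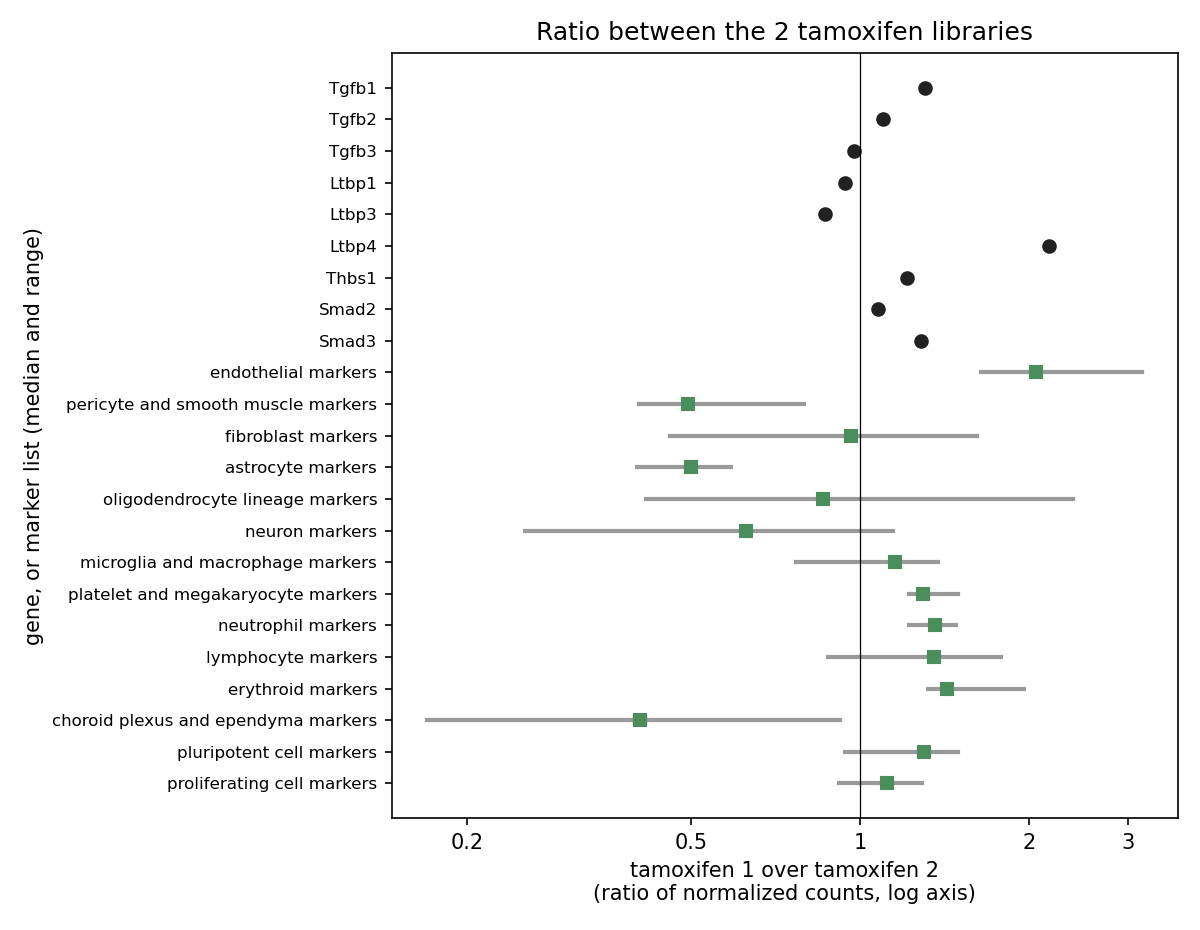
Ratio of normalized counts in tamoxifen library 1 over tamoxifen library 2 on a log axis, for each of the 9 genes (black circles) and for 14 of the 15 marker lists, without the pituitary list that has a marker at 0 (green squares at the median, grey lines over the range of the list). Ltbp4, at 2.16, lies among the endothelial markers (1.64 to 3.17), and the other genes lie between 0.87 and 1.30.

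The surrounding pathway was described by 5 groups holding 64 genes, chosen with earlier results of these data known. Of these genes, 63 were tested and 53 called, 28 higher and 25 lower. This compares with 58.9% of all genes called, and the count was 33 without tamoxifen library 2. Of the receptors, 4 of 5 were called lower (25.5% of all genes) and none higher, with a median log2 fold change of -2.09. Acvrl1 (ALK1), the endothelial type I receptor, had 47879 and 52300.4 normalized counts in controls and 8461 and 3790.0 after tamoxifen (log2 fold change -3.14, SE 0.35, adjusted p = 0.000205, limma). Endoglin (Eng), its coreceptor, was at -2.95 and Tgfbr2, the type II receptor, at -2.09. Beside them, the 12 endothelial markers, all lower and none at 0 in both libraries of a group, had a median of -2.94 (range -4.10 to -2.75). The ratio between tamoxifen libraries 1 and 2 was 2.23 for Acvrl1 and 2.02 for Eng. It was 1.61 for Tgfbr2, and 1.12 to 2.23 over the 5 receptors, against a median of 2.05 (range 1.64 to 3.17) for these markers. The part of these markers in the receptor values was not tested. Tgfbr1, the type I receptor for Smad2 and Smad3, was not called, with 2442 and 1927 normalized counts in controls and 1855 and 1660 after tamoxifen; it was named after its values were seen.

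Of the genes of latency and activation, 12 of the 15 tested were called higher (33.4% of all genes) and 3 lower (25.5% of all genes), with a median log2 fold change of 2.10. The largest rises were those of the gelatinases Mmp9 (7.43) and Mmp2 (5.24), which degrade collagen and can act on latent TGF-beta, and of Fbn2 (4.31), a microfibril protein to which binding proteins attach. Mmp9 went from 27.4 and 17.5 to 4744 and 3297 normalized counts. Beside it, the summed level of 10 neutrophil markers went from 723 and 1233 to 118679 and 88363, with all 10 higher at a median log2 fold change of 8.21, and the ratio between tamoxifen libraries 1 and 2 ranged from 1.22 to 1.48 for these markers and was 1.44 for Mmp9. The part of these markers was not tested. Lower were Furin (-1.32), the protease that cleaves the ligand precursors, Nrros (-0.99), which tethers latent TGF-beta1 on myeloid cells, and Lrrc32 (-0.86), which tethers it on platelets and regulatory T cells. Markers of blood and myeloid cells went the other way. Called higher were 10 of 10 neutrophil, 7 of 10 microglia and macrophage, 9 of 9 platelet and megakaryocyte and 7 of 7 lymphocyte markers, with none lower. The source of the Nrros and Lrrc32 values was not tested. The calls of Nrros and Lrrc32 were lost without tamoxifen library 1 (adjusted p = 0.0962 and 0.0757, limma) or without tamoxifen library 2 (0.109 and 0.0505), and that of Fbn2 without tamoxifen library 2 (0.0533). Itgb6 was below the filter on low values.

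Of the extracellular binding proteins, 5 of 6 were called higher (33.4% of all genes) and none lower, with a median log2 fold change of 2.13. Decorin (Dcn), a proteoglycan that binds TGF-beta, went from 137 and 207 to 3828 and 3183 normalized counts (log2 fold change 4.37, SE 0.24, adjusted p = 1.33e-05, limma). Cd109, a coreceptor that dampens signaling, was at 2.57 and fibromodulin (Fmod), a related proteoglycan, at 2.52. The Fmod call was lost without tamoxifen library 1 (adjusted p = 0.0567, limma) or library 2 (0.0943).

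Of the intracellular partners and inhibitors, 11 of 15 were called lower (25.5% of all genes) and 2 higher (33.4% of all genes), with a median log2 fold change of -1.11. The inhibitory Smad7, itself induced by TGF-beta, had 6809 and 8264 normalized counts in controls and 2966 and 2096 after tamoxifen (log2 fold change -1.59, SE 0.21, adjusted p = 0.000427, limma). Pmepa1 (-1.69) and Ldlrad4 (-1.62), which keep Smad2 and Smad3 from the receptor, were lower as well. The corepressors Tgif2 (2.36) and Tgif1 (0.97) were higher, although Tgif2 was at 2.74, 5.01, 11.9 and 44.6 normalized counts and its call was lost without control library 1 (adjusted p = 0.0507, limma) or tamoxifen library 2 (0.118).

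Of the known target genes, 9 of 22 were called higher and 7 lower, near the 33.4% and 25.5% of all genes, and 6 were not called. Their median log2 fold change was 0.04, against 0.05 for all genes tested. Higher were the matrix genes Col1a1 (5.95), Tnc (5.86) and Lox (5.5), which encode a collagen chain, tenascin-C and the collagen cross-linking enzyme lysyl oxidase. Col1a1 went from 367 and 494 to 29952 and 23125 normalized counts. Lower were Ccn2 (-2.69), Tsc22d1 (-2.23) and Cdkn2b (-1.67), which encode a matricellular growth factor, a transcription factor and a cell cycle inhibitor. Ccn2 went from 17296 and 16915 to 3277 and 2137 normalized counts. The matrix genes rose beside the fibroblast markers given above, and their part was not tested.

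**Figure D5:**
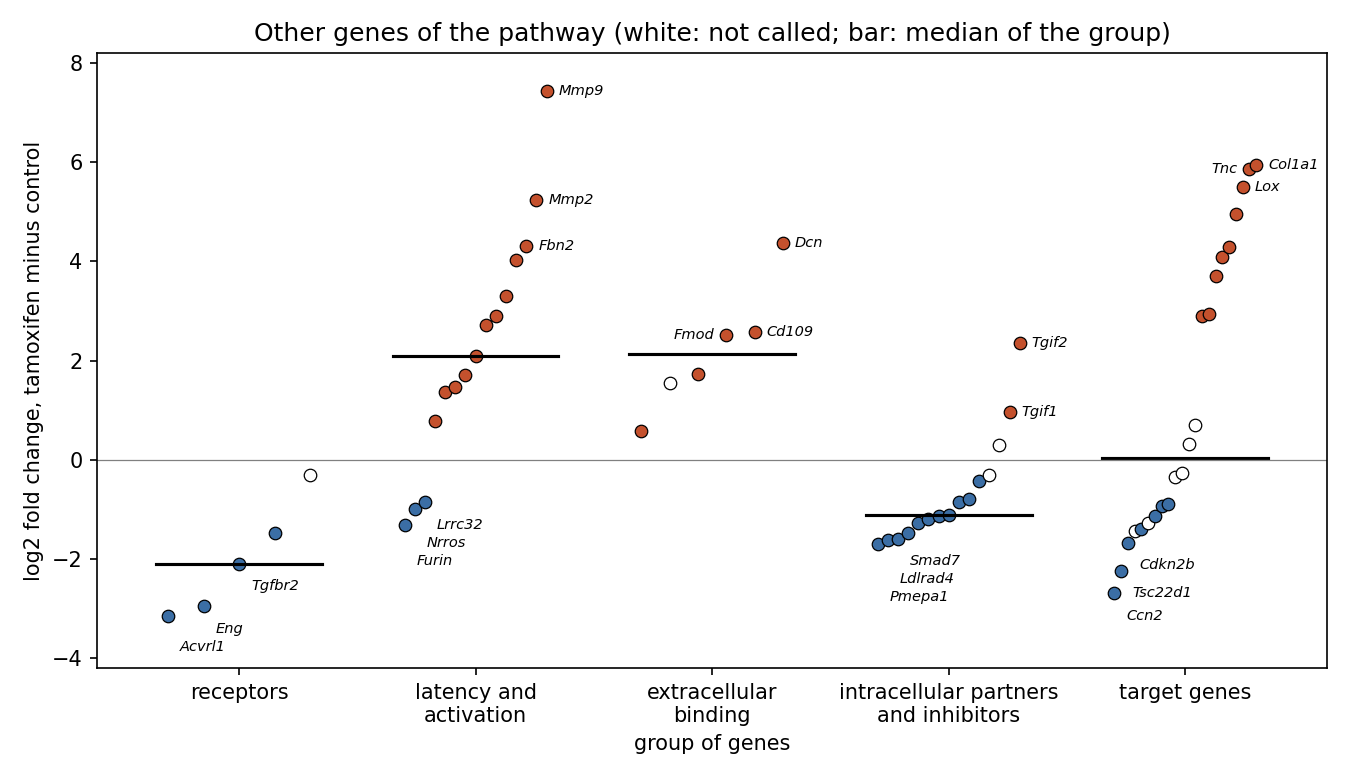
Log2 fold change (tamoxifen minus control) of the 63 tested genes in 5 groups of the pathway, ordered within each group, with red for called higher, blue for called lower, white for not called and a bar at the median of the group. Receptors sit at a median of -2.09, latency and activation genes at 2.10, binding proteins at 2.13, intracellular partners and inhibitors at -1.11 and target genes at 0.04.

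Some reads could not be assigned to a member with certainty. Exons of Tgfb3, Tgfb2 and Thbs1 overlap those of Ttll5, Gm29491 and Gm13986 on the opposite strand, and the strand setting of the counting is not given in the sources used here.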

How the data were processed

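RNA-Seq counts of 2 control and 2 tamoxifen libraries were analysed. Alignment by the authors used STAR 2.7.10a and GRCm39, with counting in the same run. Genes with few counts were dropped and DESeq2 1.36.0 gave the normalization. Annotation release, strand setting and low-count limit are not given in the sources used here. As deposited, the values are a signal (reads over 1 size factor per library), and 100% of values came out as whole reads within 0.01 read, so reads were recovered. Columns marked C were read as control and columns marked A as tamoxifen. The labels hold no A, and the numbers of the tamoxifen libraries come from the column names.

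The members and gene lists (5 pathway groups and 15 marker lists) were chosen with earlier results of these data known. Genes averaging at least 10 normalized counts were tested on log2(normalized count + 1), a scale that understates changes of low genes, with limma 3.58.1 in R 4.3.3 (trended eBayes, two-sided, Benjamini-Hochberg over 20485 genes, 2 libraries per group). Fold changes of means are ratios of normalized counts. Levels per kilobase use the union of exons in GENCODE M39 (24364 genes with a length). The smallest count of a member was 93 reads. Alternatives were other pseudocounts (0.5, 5), other filters (none, or a mean of 100), other scalings (equal library totals, quantiles), eBayes without a trend, a replicate block, count models on recovered reads (edgeR 4.0.16, DESeq2 1.42.0), omission of each library, the longest transcript as length, and reads not divided by length. Besides the members and Mgp, the text names up to 3 rises and 3 falls per pathway group (called, libraries not overlapping, largest log2 fold change), and per marker list the gene with the highest mean and any marker at 0. Some genes that this rule or the annotation would name are not reported here.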

Additional observations from a re-analysis of the deposited data

How the results depend on the processing

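The direction of the 8 called members and the calls of Tgfb1, Tgfb2, Ltbp1, Ltbp3, Ltbp4 and Thbs1 held under all 14 alternatives. Between 6 and 9 members were called. Tgfb3 lost its call in 3 alternatives and Smad3 in 1, with the values given above. Smad2 turned to 0.40 after rescaling to the same total and to 0.13 under quantile normalization, and Mgp turned to 0.079 after rescaling but was called lower under quantile normalization (-0.65, adjusted p = 0.0128). Rgs5, at 0.01, ranged from -0.52 to 0.54 with 1 library left out. Leaving out 1 library gave 4498 to 11595 called genes of all genes tested (2648 to 6838 higher and 1850 to 4757 lower), and 33 to 53 called pathway genes (18 to 29 higher and 15 to 24 lower), the low ends being those without tamoxifen library 2. A fit with 1 library in a group assumes that it varies like the other group. Rescaling gave 2862 lower genes and the additional size limit 3284. With the longest transcript as length, the largest difference in a ligand share, that of Tgfb2, was 11.3 percentage points instead of 14.2, and the control level of Tgfb1 per kilobase was 1.80 times that of Tgfb2 instead of 1.08 times, a check added after seeing the data. The labels give both groups the numbers 1 and 2. Deviations of same-numbered libraries correlated at 0.03 over 20485 genes, which cannot exclude a factor shared by fewer genes. All 10 pericyte and smooth muscle markers were higher in library 2 of both groups. Their ratios ranged from 1.64 to 2.21 (control library 2 over 1) and from 0.405 to 0.796 (tamoxifen library 1 over 2). Not all lists did so, with platelet and megakaryocyte markers at medians of 2.88 and 1.29 for these ratios. Whether same-numbered libraries share more than a number was not tested further. With the replicate block, 12635 genes, 8 members and 54 pathway genes were called. Precision was limited by 2 pools per group and, for Tgfb3, by 93 reads in control library 1.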
